A study of Mus musculus with 13 samples.

Results

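The transcriptomes of Thy1.2-positive retinal cells of wild type (WT) mice were compared between postnatal day 14 (P14, 3 libraries) and postnatal day 1 (P1, 3 libraries). Of 52550 genes in the count table, 20890 passed the low-count filter, which was set over these libraries and 2 of postnatal day 21 (P21). The 696 of these on chromosomes X and Y are left out, and 20194 genes are described here. Among other questions, the study asked how the histone demethylase UTX limits regrowth of the optic nerve. Both ages were among its developmental stages in 13 libraries, and it also compared P14 with P1 directly. The labels name no transgene, virus or injury for either group, and they differed in age. Retinas were dissociated with papain and cells stained for Thy1.2 were sorted by flow cytometry as retinal ganglion cells (RGCs), after which RNA bound to poly-T beads was sequenced. The study names its replicates as biological, while whether a library holds 1 animal or several is not given in the sources used here, and p-values below measure the spread between libraries. Fewer cells of a type and less RNA per cell cannot be told apart in these bulk samples.

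RGCs are the output neurons of the retina and their axons form the optic nerve. In mice they are born before birth, and surplus cells die in the first postnatal days. Bipolar cells and Müller glia are made mostly after birth, synapses of the inner retina form in the following weeks, and the eyes open close to the later age compared here. Over the same period blood vessels spread across the retina and grow into it.

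Total counts ran from 34064573 to 36962662 at P1 and from 30357454 to 38812917 at P14, and levels below are CPM, counts relative to the library total after TMM scaling. The first principal component of log2 CPM held 84.4% of the variance and parted the ages. The second held 5.97% and set P1 replicate 3 (score -54.8) apart from P1 replicates 1 and 2 (31.4 and 26.3). Summed Müller glia markers were at 7711, 8334 and 3395 CPM at P1 and 31731, 30008 and 31094 CPM at P14, and summed pericyte and smooth muscle markers at 163, 231 and 485 CPM at P1 and 5975, 5772 and 5302 CPM at P14. P1 replicate 3 was the lowest P1 library in Müller glia RNA and the highest in vessel wall RNA. It was the lowest of the P1 libraries for 25 of 27 Müller glia markers and the highest for 17 of 20 pericyte markers.

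Changes were common in both directions, and their balance depended on the scaling. By edgeR's quasi-likelihood test, 6812 genes (33.7%) were higher and 6739 (33.4%) lower at P14 at a Benjamini-Hochberg adjusted p under 0.05, and 6643 were not called, whereas scaled by library size alone 7756 were higher and 5729 lower. Differentially expressed genes (DEGs), which also had to change by more than 1 on the log2 scale, numbered 4012 higher (19.9%) and 3056 lower (15.1%). All P14 libraries lay above all P1 libraries for 37.0% of genes and below them for 37.1%. The median log2 fold change of P14 over P1 across all genes was -0.01, with the 5th percentile at -2.40 and the 95th at 2.97. Of the larger changes, 2355 DEGs rose and 1367 fell by more than 2 on the log2 scale, and 91 rose and 112 fell by more than 5. DEGs that fell took 28.6% to 30.6% of all CPM at P1 and 8.54% to 9.04% at P14. Those that rose took 4.35% to 5.90% at P1 and 24.4% to 24.97% at P14. Counts of list members called below are by adjusted p and stand against 33.7% higher and 33.4% lower among all genes. The changes named below are log2 fold changes, P14 over P1.

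The genes with the largest falls included several that neurons use. Kcnh4, which encodes a voltage-gated potassium channel (chr11:100740376-100759942, GRCm38), was at 79.2, 78.7 and 87.6 CPM at P1 and 0.0525, 0.346 and 1.35 CPM at P14. It fell by 7.06 on the log2 scale (SE 0.64, edgeR, Benjamini-Hochberg adjusted p = 5.71e-06). Tfap2d, an AP-2 family transcription factor gene, was at 48.99, 51.95 and 54.2 CPM at P1 and 0.341, 0.693 and 1.47 CPM at P14 and fell by 5.92 (SE 0.55, edgeR, Benjamini-Hochberg adjusted p = 6.43e-06). For both genes the ages did not overlap and the P14 libraries differed among themselves at a low level. Mstn, the gene of the growth inhibitor myostatin, was at 114, 117 and 116 CPM at P1 and 1.73, 1.79 and 3.6 CPM at P14 (-5.58, SE 0.54, edgeR, Benjamini-Hochberg adjusted p = 8.66e-06). Islr2, a membrane protein that takes part in axon extension, was at 1587, 1524 and 1689.9 CPM at P1 and 26.00, 31.6 and 61.4 CPM at P14 (-5.33, SE 0.89, edgeR, Benjamini-Hochberg adjusted p = 0.000452). Ptpn5, a tyrosine phosphatase of neurons, was at 271, 262 and 298 CPM at P1 and 5.09, 5.04 and 11.8 CPM at P14 (-5.22, SE 0.33, edgeR, Benjamini-Hochberg adjusted p = 3.75e-07). In these genes too, the lowest P1 library lay above the highest P14 library. Pak6, a p21-activated kinase, and B3gnt5, an enzyme of glycolipid synthesis, changed by -4.71 and -4.71 (edgeR adjusted p, Benjamini-Hochberg, at most 3.48e-06). P14 replicate 3 was the highest P14 library in all 15 genes of the largest falls, which ran from -7.06 to -4.71 with it and from -8.75 to -5.01 without it.

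A pair of transporters that handle serotonin fell as well. Slc6a4, the serotonin transporter, which some developing RGCs express for a time, was at 33.4, 33.8 and 32.3 CPM at P1 and 0.21, 0.504 and 1.03 CPM at P14 (-5.80, SE 0.38, edgeR, Benjamini-Hochberg adjusted p = 5.39e-07), and changed by -6.57 without P14 replicate 3. Slc18a2, the vesicular monoamine transporter, was at 165, 172 and 174 CPM at P1 and 3.28, 3.62 and 6.13 CPM at P14 (-5.28, SE 0.30, edgeR, Benjamini-Hochberg adjusted p = 2.09e-07). Neither gene overlapped between the ages.

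The genes with the largest rises included several of vessels. Vwf, the von Willebrand factor of endothelium, was at 0.932, 0.892 and 1.75 CPM at P1 and 37.5, 37.2 and 30.7 CPM at P14 and rose by 4.87 on the log2 scale (SE 0.22, edgeR, Benjamini-Hochberg adjusted p = 4.44e-08). Ackr3, a scavenging chemokine receptor, was at 0.699, 1.17 and 1.89 CPM at P1 and 38.6, 40.4 and 34.9 CPM at P14 (4.91, SE 0.26, edgeR, Benjamini-Hochberg adjusted p = 1.39e-07). Art3, a gene of the ADP-ribosyltransferase family, was at 0.379, 0.646 and 2.65 CPM at P1 and 44.9, 40.1 and 35.99 CPM at P14 (5.01, SE 0.43, edgeR, Benjamini-Hochberg adjusted p = 3.66e-06). P1 replicate 3 was the highest P1 library for all 3 genes, and the ages did not overlap. Tm4sf1, a surface protein of endothelium, Enpep, an aminopeptidase of pericytes, and Casq2, a calcium-binding protein of muscle, changed by 4.76, 4.65 and 4.74 (edgeR adjusted p, Benjamini-Hochberg, between 6.12e-08 and 1.11e-05). P1 replicate 3 was the highest P1 library in all 15 genes of the largest rises, which ran from 4.62 to 5.01 with it and from 4.96 to 6.29 without it.

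**Figure D1:**
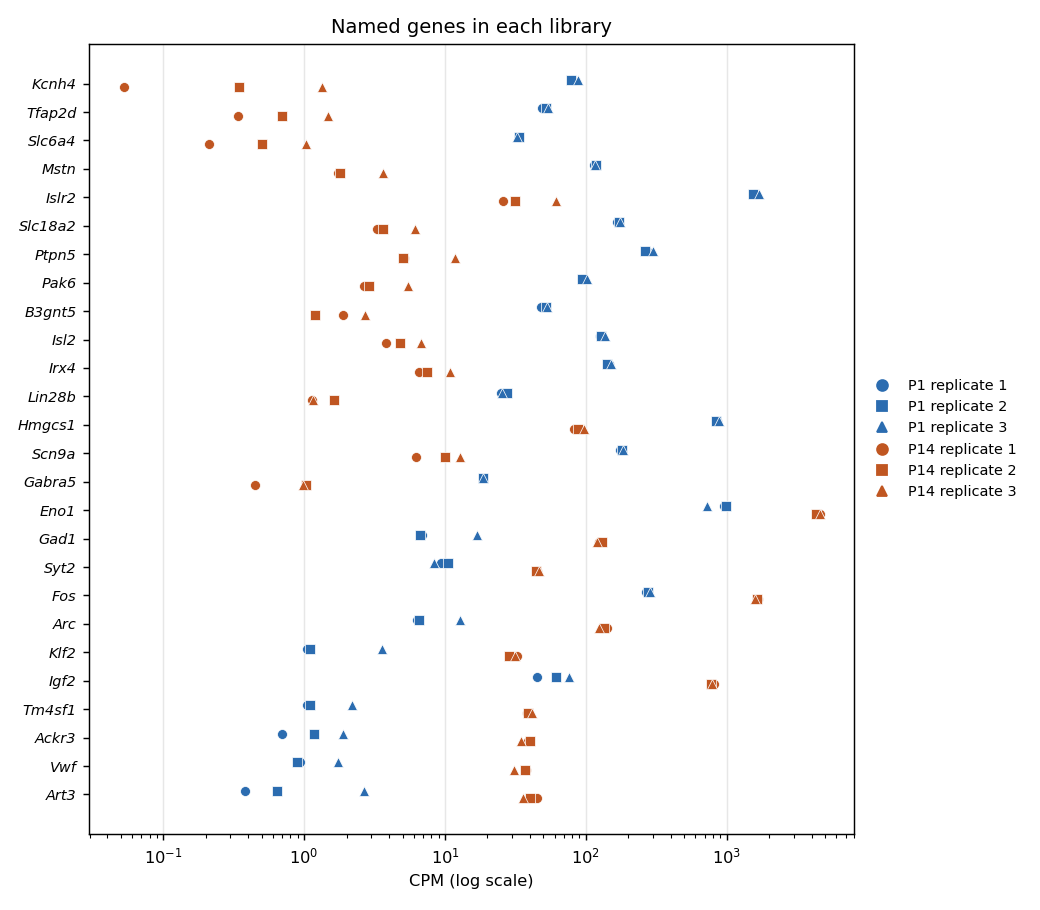
CPM on a log scale of named genes in each library, with color for age and marker shape for replicate. Genes from Kcnh4 to Gabra5 lay lower at P14 and those from Eno1 to Art3 higher, and for none of them did the P1 and P14 libraries overlap.

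The cells named by the sort were checked through their markers. Thy1, the antigen of the sort, was at 539, 505 and 571 CPM at P1 and 187, 183 and 185 CPM at P14 and fell by 1.54 on the log2 scale (SE 0.09, edgeR, Benjamini-Hochberg adjusted p = 2.77e-07). Of 25 RGC markers tested, 2 were higher, 22 lower and 1 not called, at a median of -2.61, and all 25 had at least 1 CPM in every library of both ages. Rbpms, an RNA-binding protein of RGCs, went from 631 to 67.9 CPM (-3.22, SE 0.26, edgeR, Benjamini-Hochberg adjusted p = 2.24e-06). The 2 markers that rose were Isl1 (0.25) and Nefh (0.36), of which Isl1 encodes a transcription factor that bipolar and amacrine cells also use and Nefh the heavy neurofilament of mature axons. Summed RGC markers were at 11589.5, 11362 and 12302 CPM at P1 and 1799.5, 1911 and 1952 CPM at P14, so that every P1 library lay above every P14 library.

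Markers of most other retinal cells were present at both ages and higher at P14. All 27 Müller glia markers and all 21 bipolar cell markers rose, and each had at least 1 CPM in every P1 library. Glul, the glutamine synthetase of Müller glia, was at 2276, 2430.1 and 803 CPM at P1 and 8063, 7589 and 7978 CPM at P14 (2.10, SE 0.33, edgeR, Benjamini-Hochberg adjusted p = 0.000274), with P1 replicate 3 below the other P1 libraries. The median of the Müller glia list was 2.27, and 1.99 without P1 replicate 3. Pcp2, a marker of rod bipolar cells, was at 15.8, 12.1 and 15.4 CPM at P1 and 171, 170.3 and 180.3 CPM at P14 (3.59, SE 0.11, edgeR, Benjamini-Hochberg adjusted p = 8.04e-09). Of 32 rod markers tested, 30 were higher, 1 lower and 1 not called, and of 13 cone markers, 11 were higher, 1 lower and 1 not called. The exceptions were Gnb1 (-1.50) and Rxrg (-3.48), a G protein subunit used by many neurons and a nuclear receptor gene. Amacrine and horizontal cell markers were mixed. Of 23 amacrine markers tested, 10 were higher, 10 lower and 3 not called (median 0.06, and -0.01 without P1 replicate 3). Summed, amacrine markers were at 2181, 2164 and 2243 CPM at P1 and 1404, 1456 and 1451 CPM at P14, and every P14 library lay below every P1 library. Gad1 and Gad2, which make GABA, rose (3.63 and 1.36), while Barhl2, a transcription factor gene shared with RGCs, fell (-3.75, edgeR adjusted p, Benjamini-Hochberg, between 2.21e-07 and 2.66e-06).

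Markers of cells that the retina does not make mostly rose as well. All 24 microglia and macrophage markers rose, and those with at least 1 CPM in every library went from 11 at P1 to 24 at P14. Summed, they were at 41.9, 40.01 and 61.9 CPM at P1 and 486, 487 and 498 CPM at P14, and every P14 library lay above every P1 library. Of 26 endothelial markers 25 rose, and Plvap, which forms the diaphragms of leaky vessels, was the exception (-0.04, not called). Mfsd2a, a lipid transporter of barrier vessels, was at 3.55, 4.49 and 4.2 CPM at P1 and 20.9, 15.6 and 16.96 CPM at P14 (2.13, SE 0.14, edgeR, Benjamini-Hochberg adjusted p = 6.9e-07). All 20 pericyte and smooth muscle markers rose, at a median of 4.30. Rgs5, a G protein regulator of pericytes, was at 44.97, 73.1 and 201 CPM at P1 and 2534, 2518 and 2294 CPM at P14 (4.53, SE 0.51, edgeR, Benjamini-Hochberg adjusted p = 2.72e-05), with P1 replicate 3 the highest P1 library and a log2 fold change of 5.37 without it. Astrocyte (14 higher, 0 lower and 1 not called) and fibroblast and meningeal lists (15 higher, 0 lower and 1 not called) also held mostly members that rose. The oligodendrocyte lineage list was mixed, with 5 higher, 6 lower and 0 not called. Its summed level was 123, 146 and 162 CPM at P1 and 982, 936 and 861 CPM at P14, higher at P14. Tested members with at least 1 CPM in every library nonetheless went from 8 at P1 to 5 at P14. Below the filter were 4 further members. Cspg4, a proteoglycan of oligodendrocyte precursors and of pericytes, was at 5.42, 6.43 and 21.3 CPM at P1 and 300.5, 272 and 246 CPM at P14 (4.62, SE 0.44, edgeR, Benjamini-Hochberg adjusted p = 7.94e-06), and changed by 5.52 without P1 replicate 3. In the other direction Mog, a myelin protein gene, was at 10.9, 12.3 and 14.3 CPM at P1 and 0.394, 0.724 and 0.662 CPM at P14 (-4.40, SE 0.42, edgeR, Benjamini-Hochberg adjusted p = 8.12e-06). What share of the changes described below comes with these cell types was not tested.

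**Figure D2:**
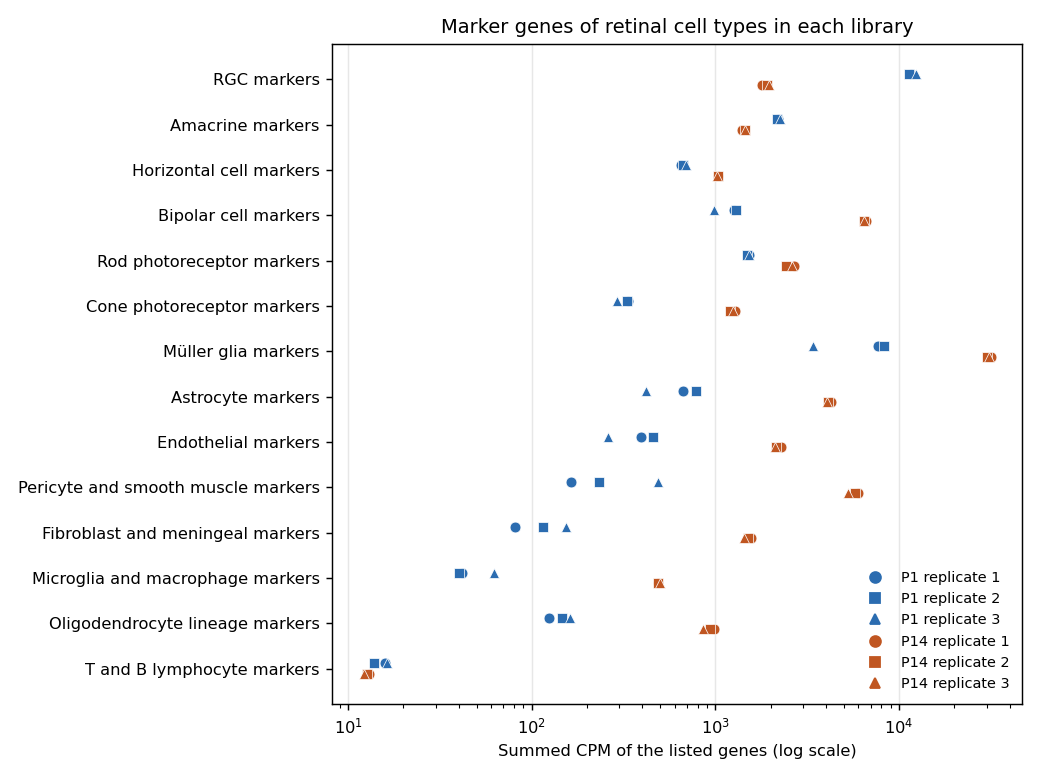
Summed CPM of cell type marker lists in each library on a log scale, with color for age and marker shape for replicate. RGC markers summed to 11362 to 12302 CPM at P1 and to 1800 to 1952 CPM at P14, while Müller glia, bipolar, vessel and microglia markers lay higher at P14.

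Most transcription factors of RGCs fell. Of 47 tested, 6 were higher, 40 lower and 1 not called, at a median of -2.31. Isl2, a LIM homeobox gene of RGCs that project across the midline, was at 126, 127 and 138 CPM at P1 and 3.83, 4.79 and 6.79 CPM at P14 (-4.66, SE 0.42, edgeR, Benjamini-Hochberg adjusted p = 5.49e-06). Irx4, an Iroquois homeobox gene, was at 147, 141 and 150.1 CPM at P1 and 6.56, 7.4 and 10.8 CPM at P14 (-4.14, SE 0.34, edgeR, Benjamini-Hochberg adjusted p = 2.52e-06). Both were separated between the ages by a wide gap. Other members that fell were Myt1l (-2.98), Foxp2 (-2.36), Onecut2 (-2.31), Onecut1 (-2.002) and Irx6 (-1.94) (edgeR adjusted p, Benjamini-Hochberg, between 6.84e-09 and 1.41e-05). Members that rose included Zeb2 (0.83), Zic1 (1.31) and St18 (2.40). The list of RGC subtype markers was balanced, with 15 higher, 15 lower and 8 not called of 38 and a median of 0.15. Within it Fstl4, a follistatin-like gene, fell by 3.47, whereas Kcng4, a modulatory potassium channel subunit of alpha RGCs, rose by 3.51, and Kcnip2, a potassium channel-interacting protein, rose by 2.85 (edgeR adjusted p, Benjamini-Hochberg, between 9.8e-09 and 2.73e-08). Of 28 retinal progenitor and neurogenic genes, 18 were higher, 9 lower and 1 not called (median 0.62). Against most of these, Atoh7, the transcription factor that gives progenitors the ability to become RGCs, went from 2.99 to 0.488 CPM (-2.59, SE 0.36, edgeR, Benjamini-Hochberg adjusted p = 0.00011). Notch1, a receptor that keeps progenitors undifferentiated, rose by 1.90, and Rax, an eye field homeobox gene kept by Müller glia, rose by 2.59 (edgeR adjusted p, Benjamini-Hochberg, at most 6.06e-08).

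Genes of the microtubule system of growing neurites mostly fell. Of 46 microtubule-associated, motor and stathmin genes, 3 were higher, 40 lower and 3 not called, at a median of -1.57. Dpysl3, a collapsin response mediator gene of growth cones, was at 3543, 3471 and 3779 CPM at P1 and 156, 157 and 228 CPM at P14 (-4.32, SE 0.40, edgeR, Benjamini-Hochberg adjusted p = 6.17e-06). Mapt, which encodes tau, was at 2564, 2500.4 and 2750.3 CPM at P1 and 239, 249 and 302 CPM at P14 (-3.31, SE 0.12, edgeR, Benjamini-Hochberg adjusted p = 1.84e-08). Kif5a, a kinesin motor of axons, was at 1953, 1886 and 2110.5 CPM at P1 and 233, 242 and 258 CPM at P14 (-3.02, SE 0.18, edgeR, Benjamini-Hochberg adjusted p = 2.81e-07). None of these overlapped between the ages, and each was among the genes that lost most CPM. Among the 3 exceptions Map4, a microtubule-associated gene of many cell types, rose by 0.27 (SE 0.04, edgeR, Benjamini-Hochberg adjusted p = 0.000227). Of 16 tubulin genes, 3 were higher, 10 lower and 3 not called. Alpha and beta tubulin genes have near-identical copies, and how reads that match several genes were counted is not given in the sources used here, so their single values are uncertain. Tubb3, the beta tubulin of neurons, was at 2188, 2111 and 2312 CPM at P1 and 131, 142 and 179 CPM at P14 (-3.87, SE 0.38, edgeR, Benjamini-Hochberg adjusted p = 8.93e-06). Tuba1a, the main alpha tubulin of young neurons, changed by -2.78, and Tubb5 by -2.76, while Tuba4a (0.73) and Tubb6 (1.02) rose and Tubb4b (0.10) and Tubg1 (-0.13) were not called (edgeR adjusted p, Benjamini-Hochberg, between 6.84e-09 and 0.000159 for the called genes). Of intermediate filament genes, Ina, alpha-internexin of neurons, fell by 3.74, and Nes, nestin of glia and vessels, rose by 3.04 (edgeR adjusted p, Benjamini-Hochberg, at most 9.01e-08).

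Among molecules by which axons find and hold their partners, adhesion and protocadherin genes mostly fell and guidance genes were mixed. Of 42 axonal adhesion molecules, 10 were higher, 26 lower and 6 not called (median -0.84), while of 19 classical cadherins 9 were higher, 9 lower and 1 not called. Fat3, a giant cadherin that shapes amacrine dendrites, was at 342, 335 and 331 CPM at P1 and 79.4, 85.5 and 79.9 CPM at P14 (-2.04, SE 0.07, edgeR, Benjamini-Hochberg adjusted p = 1.09e-08). Celsr3, an atypical cadherin needed for axon tracts, fell by 1.72, and Ntm, neurotrimin, fell by 1.57, while Cntn4, a contactin, rose by 1.45 (edgeR adjusted p, Benjamini-Hochberg, between 1.15e-08 and 1.04e-07). Of 57 clustered protocadherins, whose combinations mark single neurons, 3 were higher, 42 lower and 12 not called (median -0.67). Members of the alpha cluster that fell included Pcdha3 (-2.99), Pcdha7 (-2.95), Pcdhac2 (-2.85) and Pcdha9 (-2.60), whereas Pcdhgc3 rose by 0.84 (edgeR adjusted p, Benjamini-Hochberg, between 2.14e-08 and 1.16e-06). These genes share exons at their ends, so reads there cannot be given to a single member. Semaphorins, plexins and neuropilins (10 higher, 16 lower and 3 not called, median -0.62) ran from Sema6c (-2.66) and Sema6a (-1.82) to Plxnd1 (1.76) and Sema5b (2.56), the last a repellent that keeps inner retinal neurites in place. Ephrins and Eph receptors (7 higher, 10 lower and 4 not called, and 10 higher and 10 lower when scaled by library size alone) ran from Efnb3 (-1.87) and Ephb2 (-1.86) to Ephb4 (2.18) and Epha2 (2.51). Of 25 netrin, Slit, Robo and Rgm genes, 11 were higher, 11 lower and 3 not called. Among them Robo2, a Slit receptor of RGC axons, was at 453, 460.2 and 488 CPM at P1 and 132, 127 and 125 CPM at P14 (-1.87, SE 0.07, edgeR, Benjamini-Hochberg adjusted p = 1.74e-08), and Unc5b, a netrin receptor of vessels, rose by 2.90 (SE 0.08, edgeR, Benjamini-Hochberg adjusted p = 5.08e-09).

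Receptors for glutamate were mostly lower. Of 36 receptor and auxiliary genes, 6 were higher, 27 lower and 3 not called, at a median of -0.90. Shisa7, an auxiliary receptor subunit, was at 160.1, 164 and 168 CPM at P1 and 16.1, 18.7 and 22.4 CPM at P14 (-3.10, SE 0.13, edgeR, Benjamini-Hochberg adjusted p = 3.74e-08). Grin3a, an NMDA receptor subunit of young synapses, fell by 1.64 (SE 0.06, edgeR, Benjamini-Hochberg adjusted p = 1.15e-08). Among members that rose, Grm6, the metabotropic receptor of ON bipolar cells, was at 107, 105 and 75.6 CPM at P1 and 945, 969.6 and 952 CPM at P14 (3.32, SE 0.13, edgeR, Benjamini-Hochberg adjusted p = 2.47e-08). All P14 libraries of Grm6 lay above all P1 libraries. Receptors for GABA and glycine were balanced, with 12 higher, 12 lower and 0 not called of 24 (median -0.01, and 0.12 when scaled by library size alone). Gabra5, an alpha subunit, was at 18.7, 18.7 and 18.6 CPM at P1 and 0.446, 1.04 and 0.981 CPM at P14 (-4.51, SE 0.28, edgeR, Benjamini-Hochberg adjusted p = 3.88e-07). The metabotropic receptor genes Gabbr1 (-1.33) and Gabbr2 (-2.08) fell, and the chloride carriers Slc12a5 (1.22), Slc12a2 (1.23) and Slc12a7 (1.71) rose (edgeR adjusted p, Benjamini-Hochberg, between 1.86e-08 and 9.18e-06).

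Voltage-gated channels changed member by member. Of 16 sodium channel genes, 4 were higher, 10 lower and 2 not called. Scn9a, an alpha subunit best known from sensory neurons, was at 175, 180.4 and 183 CPM at P1 and 6.24, 9.92 and 12.8 CPM at P14 (-4.21, SE 0.33, edgeR, Benjamini-Hochberg adjusted p = 1.83e-06), while the auxiliary subunit Scn2b rose by 0.83 (SE 0.09, edgeR, Benjamini-Hochberg adjusted p = 1.98e-05). Scn9a did not overlap between the ages. Of 45 potassium and HCN channel genes, 15 were higher, 23 lower and 7 not called, with Dpp10 (-3.17) and Hcn4 (-2.29) among those that fell and Kcnab1 (2.32) among those that rose (edgeR adjusted p, Benjamini-Hochberg, between 2.83e-09 and 1.13e-08). Of 17 calcium channel genes, 5 were higher, 8 lower and 4 not called (median -0.11, and 0.02 when scaled by library size alone). Cacna1a, the P/Q-type pore subunit of transmitter release, was at 244, 246 and 259.8 CPM at P1 and 67.8, 72.7 and 69.99 CPM at P14 (-1.83, SE 0.08, edgeR, Benjamini-Hochberg adjusted p = 3.75e-08). Cacna2d3, an auxiliary subunit, rose by 1.68 (SE 0.08, edgeR, Benjamini-Hochberg adjusted p = 6.89e-08).

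Genes of the release machinery fell more often than they rose. Of 53 vesicle release genes, 15 were higher, 35 lower and 3 not called (median -0.77). Erc2, an active zone protein gene, was at 179, 181 and 187 CPM at P1 and 22.6, 24.8 and 26.4 CPM at P14 (-2.89, SE 0.08, edgeR, Benjamini-Hochberg adjusted p = 6.21e-09). Against the list, Syt2, a fast calcium sensor of release, was at 9.38, 10.5 and 8.35 CPM at P1 and 44.9, 44.4 and 46.6 CPM at P14 (2.27, SE 0.08, edgeR, Benjamini-Hochberg adjusted p = 1.71e-08), and Slc32a1, which loads vesicles with GABA and glycine, rose by 2.94 (SE 0.21, edgeR, Benjamini-Hochberg adjusted p = 8.55e-07). Of 37 postsynaptic genes, 8 were higher, 25 lower and 4 not called (median -0.68). Dlgap3 and Grip1, scaffold genes, fell by 2.60 and by 2.14, while Nrxn3, a neurexin, and Dlg1, a scaffold of glia and neurons, rose (1.36 and 1.27, edgeR adjusted p, Benjamini-Hochberg, between 3.36e-09 and 9.62e-07). Arc, an activity-regulated gene of dendrites, was at 6.32, 6.49 and 12.8 CPM at P1 and 140.2, 134 and 124 CPM at P14 (3.95, SE 0.23, edgeR, Benjamini-Hochberg adjusted p = 2.33e-07). Pump and buffer genes were mixed (13 higher, 15 lower and 4 not called). Among them Slc8a2, a sodium-calcium exchanger of neurons, fell by 2.62, and Hpca, the calcium sensor hippocalcin, fell by 2.27 (edgeR adjusted p, Benjamini-Hochberg, at most 2.23e-08).

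Switches between related genes were followed in 33 pairs through the share of the second gene in the summed CPM per kb of exon of both. The share was larger at P14 in 21 pairs, and in 19 of these, as in 10 pairs with a smaller share, the libraries of the ages did not overlap. Of all single genes, 37.0% had every P14 library above and 37.1% below every P1 library. Shares in unrelated pairs were not computed, so the pair counts have no background of their own. For the vesicular glutamate transporters Slc17a6 and Slc17a7, the second made up 37.2, 37.95 and 16.5% at P1 and 93.5, 92.3 and 93.3% at P14. Slc17a6 serves RGCs and Slc17a7 bipolar cells and photoreceptors. For the neurofilament subunits Nefm and Nefh, it made up 2.4, 2.69 and 2.6% at P1 and 25.8, 24.6 and 22.6% at P14. For the synaptotagmins Syt4 and Syt2, it made up 0.756, 0.854 and 0.66% at P1 and 21.3, 20.5 and 19.6% at P14. In each of these pairs the first gene fell and the second rose. In others both genes fell by unequal amounts. Of the NMDA receptor subunits Grin2b and Grin2a, the second took 8.63, 9.5 and 8.14% at P1 and 22.3, 23.8 and 24.4% at P14. Of the microtubule-associated genes Map1b and Map1a, it took 9.38, 9.11 and 9.67% at P1 and 38.5, 38.4 and 34.3% at P14. Of the sodium channels Scn2a and Scn8a, it took 40.03, 40.2 and 42.8% at P1 and 63.5, 62.05 and 64.1% at P14. The share of the second gene thus grew although Grin2a, Map1a and Scn8a themselves fell (-0.63, -0.51 and -0.65, edgeR adjusted p, Benjamini-Hochberg, between 4.22e-06 and 0.00136). For the calmodulin kinase, glycine receptor and chloride carrier pairs, the changes were small: Camk2a went from 12.6% to 14.2%, and Glra1 and Slc12a5 overlapped between the ages.

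**Figure D3:**
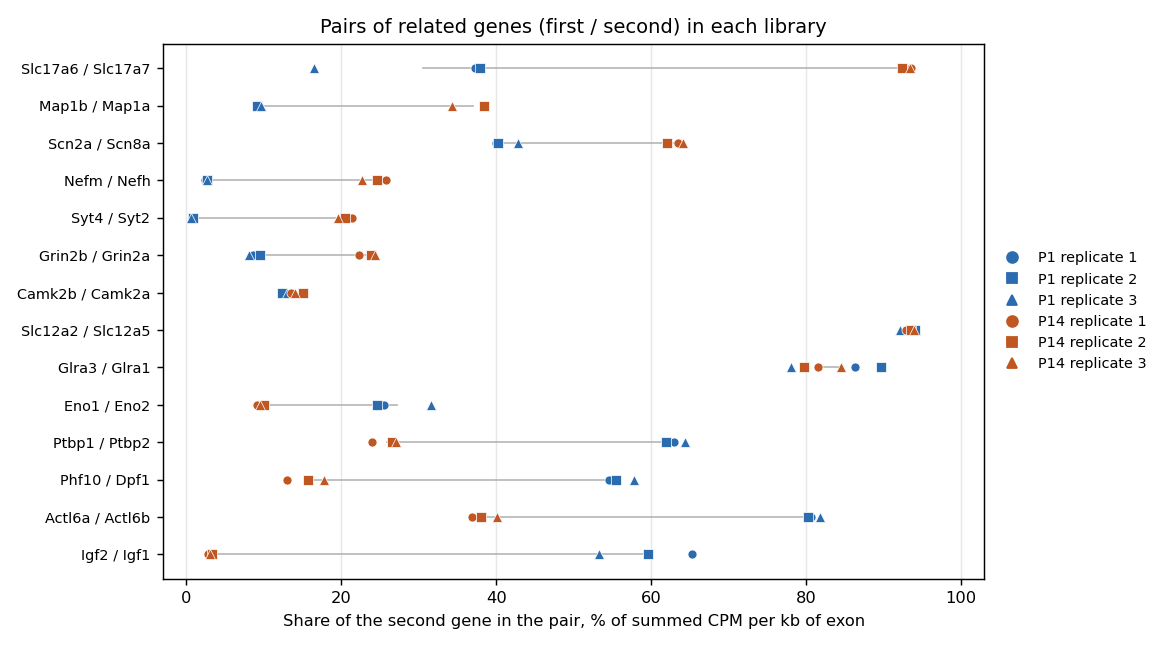
Share of the second gene in 14 of the 33 pairs, in percent of summed CPM per kb of exon. There is 1 point per library, with color for age, shape for replicate and a gray line between the means. Slc17a7 went from 30.6% on average at P1 to 93.1% at P14, whereas Igf1, paired with Igf2, and Dpf1, paired with Phf10, lost share.

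Genes of cholesterol synthesis fell almost together. Of 25 tested, 3 were higher, 22 lower and 0 not called, at a median of -1.48. Hmgcs1, an early enzyme of the pathway, was at 846, 842 and 876 CPM at P1 and 82.7, 87.7 and 97.2 CPM at P14 (-3.26, SE 0.14, edgeR, Benjamini-Hochberg adjusted p = 3.56e-08). Its libraries did not overlap between the ages. Further members were Acat2 (-2.55), Mvd (-2.23) and Fdft1 (-2.23), and the exceptions included Insig2 (0.42) and Srebf1 (1.65), of which Srebf1 encodes a regulator mainly of fatty acid synthesis (edgeR adjusted p, Benjamini-Hochberg, between 3.58e-09 and 0.00038). The sterol regulatory element TCACNCCAC was searched on both strands in the 250 bases before the start of each gene in RefSeq promoters (GRCm38.p6). It was found for 1 of 17 tested list members with a promoter, against 1.22% of 27025 genes, tested or not. The match was in Hmgcs1 (chr13:119690101-119690350, plus strand), shown here with the element in capitals because this gene fell furthest in the list.

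Hmgcs1: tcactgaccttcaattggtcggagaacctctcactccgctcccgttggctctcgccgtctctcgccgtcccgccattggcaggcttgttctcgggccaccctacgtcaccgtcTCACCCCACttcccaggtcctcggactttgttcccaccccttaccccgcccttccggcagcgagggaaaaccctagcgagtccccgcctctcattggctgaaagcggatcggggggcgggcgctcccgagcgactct

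Genes of sugar breakdown mostly rose. Of 29 glycolysis and lactate genes, 20 were higher, 6 lower and 3 not called (median 0.53). Eno1, a glycolytic enolase, was at 957, 984 and 720.1 CPM at P1 and 4559, 4269 and 4558 CPM at P14 (2.33, SE 0.11, edgeR, Benjamini-Hochberg adjusted p = 4.91e-08). Its neuronal relative Eno2 rose by 0.53 as well but less, and made up 25.4, 24.7 and 31.6% at P1 and 9.16, 10.1 and 9.53% at P14 of their CPM per kb. Slc2a1, the glucose transporter of vessels and glia, rose by 2.23, Ldha, a lactate dehydrogenase subunit, rose by 1.13, and Pfkp, a phosphofructokinase, fell by 1.04 (edgeR adjusted p, Benjamini-Hochberg, between 1.92e-08 and 2.65e-06).

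Housekeeping machines moved by smaller amounts. Of 82 ribosomal protein genes, 40 were higher, 12 lower and 30 not called (median 0.15), and none changed by more than 1. Scaled by library size alone, 47 were higher and 4 lower. Of 86 nuclear oxidative phosphorylation genes, 36 were higher, 19 lower and 31 not called (median 0.11), and scaled by library size alone 49 were higher and 8 lower. Of 11 genes of the mitochondrial genome, 6 were higher, 0 lower and 5 not called. Proteasome subunits (3 higher, 29 lower and 6 not called, median -0.25) and the chaperonin that folds actin and tubulin (1 higher, 9 lower and 3 not called, median -0.60) were mostly lower. Scaled by library size alone, 5 proteasome genes were higher and 19 lower. Psmd14, a deubiquitinase of the proteasome, was at 76.6, 69.8 and 79.5 CPM at P1 and 47.6, 50.6 and 47.5 CPM at P14 (-0.63, SE 0.06, edgeR, Benjamini-Hochberg adjusted p = 8.15e-06), and Cct7, a chaperonin subunit, fell by 0.81 (SE 0.05, edgeR, Benjamini-Hochberg adjusted p = 2.27e-07). The proteasome members that rose were the inducible subunits Psmb8 (2.47) and Psmb9 (2.204) and the germ line subunit Psma8 (5.25). Of 34 aminoacyl-tRNA synthetases, 5 were higher, 19 lower and 10 not called, including Gars (-1.36) and Aars (-0.74).

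The BAF chromatin remodelling complex exchanges subunits when neurons leave the cell cycle. Of 26 subunits, 5 were higher, 18 lower and 3 not called (median -0.51). The subunits of neurons fell, with Actl6b at 158, 153 and 165 CPM at P1 and 23.9, 25.3 and 27.9 CPM at P14 (-2.63, SE 0.08, edgeR, Benjamini-Hochberg adjusted p = 8.95e-09) and Dpf1 at 80.3, 82.9 and 86.01 CPM at P1 and 9.45, 12.2 and 13.5 CPM at P14 (-2.83, SE 0.11, edgeR, Benjamini-Hochberg adjusted p = 2.43e-08). Neither overlapped between the ages. The partner used by dividing cells, Actl6a, was not called (0.14), so that Actl6b made up 80.6, 80.2 and 81.8% at P1 and 36.8, 38.1 and 40.05% at P14 of the pair. Smarcd2, a subunit found in many cell types, rose by 1.38 (SE 0.08, edgeR, Benjamini-Hochberg adjusted p = 2.37e-07). Polycomb and DNA methylation genes were near balance, with 9 higher, 10 lower and 15 not called of 34, and 14 higher and 9 lower when scaled by library size alone. Kdm6b, the H3K27 demethylase related to UTX, was at 138, 129 and 142 CPM at P1 and 148, 153 and 147 CPM at P14 (0.13, SE 0.05, edgeR, Benjamini-Hochberg adjusted p = 0.0406). Its call was lost under several settings, as without P1 replicate 2 (adjusted p = 0.161 by the same test), so no direction is drawn from it. Ezh2, which adds the mark that UTX removes, was not called (-0.13).

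RNA-binding proteins of immature cells and of neurons mostly fell. Of 15 let-7 pathway and oncofetal genes, 1 was higher, 13 lower and 1 not called (median -0.90). Lin28b, which blocks maturation of the let-7 microRNA, was at 25.2, 27.7 and 25.3 CPM at P1 and 1.13, 1.64 and 1.15 CPM at P14 (-4.33, SE 0.44, edgeR, Benjamini-Hochberg adjusted p = 1.18e-05), and its libraries did not overlap between the ages. Igf2bp2, Igf2bp3 and Mycn changed by -2.15, -2.10 and -2.05 (edgeR adjusted p, Benjamini-Hochberg, between 2.31e-08 and 3.04e-07). Of 29 neuronal splicing regulators, 9 were higher, 18 lower and 2 not called (median -0.79). Celf5 (-2.56), Nova2 (-2.45) and Celf4 (-1.63) fell and Ptbp1 (1.39), Qk (1.32) and Khdrbs3 (0.91) rose (edgeR adjusted p, Benjamini-Hochberg, between 7.82e-09 and 2.36e-07). Ptbp1 is the splicing repressor of cells that are not neurons. Its neuronal relative Ptbp2 made up 62.95, 61.9 and 64.3% at P1 and 23.97, 26.5 and 27.1% at P14 of the pair.

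Long noncoding RNAs and imprinted genes moved both ways. Snhg11, a brain-enriched noncoding RNA, was at 2462, 2477 and 2670.5 CPM at P1 and 394, 509 and 519 CPM at P14 (-2.42, SE 0.14, edgeR, Benjamini-Hochberg adjusted p = 2.27e-07). Meg3, an imprinted noncoding RNA, was at 4376, 4568 and 4718 CPM at P1 and 1221, 1429 and 1380.4 CPM at P14 (-1.76, SE 0.07, edgeR, Benjamini-Hochberg adjusted p = 1.92e-08), and Rian, from the same imprinted locus, fell by 1.82 (SE 0.08, edgeR, Benjamini-Hochberg adjusted p = 3.38e-08). Of 40 imprinted genes, 17 were higher, 17 lower and 6 not called. Nnat, neuronatin, was at 1105, 1074 and 1156 CPM at P1 and 106, 113 and 139 CPM at P14 (-3.22, SE 0.12, edgeR, Benjamini-Hochberg adjusted p = 1.94e-08), while Mest, a maternally imprinted gene of mesoderm, rose by 1.99 (SE 0.05, edgeR, Benjamini-Hochberg adjusted p = 4.37e-09). Mir124a-1hg, a host gene of microRNA-124, was at 109, 107 and 90.7 CPM at P1 and 223, 240.4 and 234 CPM at P14 (1.19, SE 0.08, edgeR, Benjamini-Hochberg adjusted p = 5.68e-07). The reads come from RNA with poly-A tails, so they measure host transcripts and not the mature microRNA. Histone genes with counts over the filter were mostly higher, with 20 higher, 1 lower and 8 not called of 29, while 39 others were below it. They are near-identical copies and largely lack poly-A tails.

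Genes of cell death and of axon growth were mixed. Of 29 death genes, 13 were higher, 14 lower and 2 not called (median -0.10, and 0.03 when scaled by library size alone). Hrk, a BH3-only activator of death in neurons, was at 25.1, 23.8 and 25.3 CPM at P1 and 5.85, 5.67 and 7.01 CPM at P14 (-1.997, SE 0.11, edgeR, Benjamini-Hochberg adjusted p = 1.29e-07), and every P14 library lay below every P1 library. The antiapoptotic Bcl2l2 rose by 0.79 (SE 0.05, edgeR, Benjamini-Hochberg adjusted p = 6.66e-07). Of 37 intrinsic regulators of axon growth, 13 were higher, 17 lower and 7 not called. Those that fell included Sox11, a transcription factor gene of young neurons, and Cdk5r1, an activator of the kinase Cdk5, at -3.63 and -2.30 (edgeR adjusted p, Benjamini-Hochberg, at most 2.23e-08). Those that rose included Socs3 and Klf4, brakes on regeneration, at 2.57 and 2.91, and Stat3, at 0.88 (edgeR adjusted p, Benjamini-Hochberg, between 1.46e-07 and 2.72e-06). Klf2, a gene of endothelium, was at 1.05, 1.11 and 3.56 CPM at P1 and 32.7, 28.5 and 31.4 CPM at P14 (4.003, SE 0.36, edgeR, Benjamini-Hochberg adjusted p = 4.61e-06), and changed by 4.83 without P1 replicate 3. Of 28 inhibitor, receptor and small GTPase genes, 14 were higher, 9 lower and 5 not called. Lingo1, a coreceptor for myelin inhibitors, was at 363, 368 and 384 CPM at P1 and 58.5, 63.6 and 68.6 CPM at P14 (-2.55, SE 0.09, edgeR, Benjamini-Hochberg adjusted p = 1.24e-08), and Bcan, the matrix proteoglycan brevican, rose by 3.32 (SE 0.10, edgeR, Benjamini-Hochberg adjusted p = 8.05e-09).

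**Figure D4:**
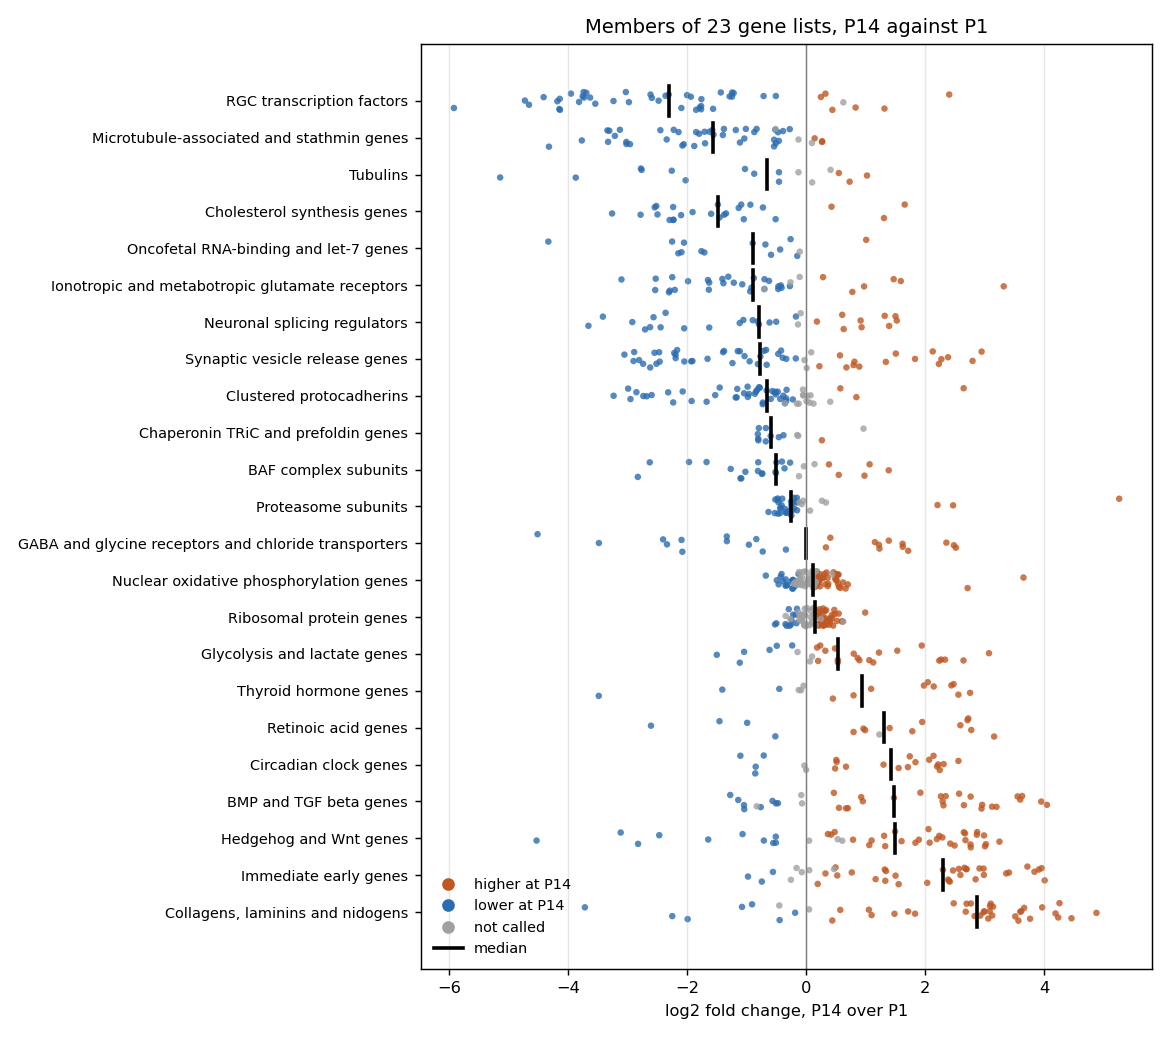
Log2 fold change (P14 over P1) of each tested member of 23 gene lists, with color for the call and a black bar for the median. RGC transcription factors and microtubule genes lay mostly left of 0 (medians -2.31 and -1.57), and immediate early and matrix genes mostly right of it (medians 2.30 and 2.87).

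Hormone and growth factor systems were mostly higher. Of 16 thyroid hormone genes, 10 were higher, 3 lower and 3 not called. Dio2, which makes the active hormone, was at 65.5, 83.2 and 18.6 CPM at P1 and 243, 223 and 222 CPM at P14 (2.04, SE 0.41, edgeR, Benjamini-Hochberg adjusted p = 0.00136), Dio3, which degrades it, rose by 2.55 (SE 0.32, edgeR, Benjamini-Hochberg adjusted p = 5.27e-05), and the receptor gene Thra fell by 1.41 (SE 0.06, edgeR, Benjamini-Hochberg adjusted p = 2.23e-08). Of 16 retinoic acid genes, 11 were higher, 4 lower and 1 not called. Aldh1a1 and Aldh1a3, which make retinoic acid, rose (2.72 and 3.15), and Crabp2, which carries it in the cell, fell (-2.61, edgeR adjusted p, Benjamini-Hochberg, between 3.18e-08 and 6.67e-06). The insulin-like growth factors parted: Igf2 was at 44.9, 61.2 and 76.1 CPM at P1 and 807, 767 and 788 CPM at P14 (3.70, SE 0.17, edgeR, Benjamini-Hochberg adjusted p = 4.57e-08) and Igf1 at 146, 156 and 149.7 CPM at P1 and 40.9, 46.1 and 42.04 CPM at P14 (-1.81, SE 0.09, edgeR, Benjamini-Hochberg adjusted p = 1.08e-07). Igf2, made by vessels and meninges in the brain, was highest among P1 libraries in replicate 3. Neither overlapped between the ages.

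Of 43 Hedgehog and Wnt genes, 30 were higher, 10 lower and 3 not called, and of 35 BMP and TGF beta genes, 24 were higher, 8 lower and 3 not called. The receptors Fzd4 (2.87), Fzd6 (3.001), Fzd8 (2.65) and Lrp5 (2.42) rose, of which Fzd4 and Lrp5 are needed for retinal vessel growth (edgeR adjusted p, Benjamini-Hochberg, between 6.81e-09 and 2.97e-08). Wnt3, a ligand, was at 17.9, 14.8 and 16.7 CPM at P1 and 0.551, 0.63 and 0.932 CPM at P14 (-4.53, SE 0.22, edgeR, Benjamini-Hochberg adjusted p = 6.81e-08). Tgfbr2, a TGF beta receptor, was at 1.43, 2.06 and 2.34 CPM at P1 and 32.7, 35.2 and 28.4 CPM at P14 (4.04, SE 0.16, edgeR, Benjamini-Hochberg adjusted p = 2.44e-08). All P14 libraries lay below all P1 libraries for Wnt3 and above them for Tgfbr2. The ligand Bmp7 rose by 2.30, and the signal transducers Smad1 (-1.04) and Smad2 (-1.14) fell (edgeR adjusted p, Benjamini-Hochberg, between 1.18e-08 and 5.93e-07). Of 33 neurotrophic genes, 20 were higher, 7 lower and 6 not called. Vegfa, the growth factor that draws vessels, was at 202, 209 and 178 CPM at P1 and 1115, 1135 and 1138 CPM at P14 (2.52, SE 0.06, edgeR, Benjamini-Hochberg adjusted p = 4.32e-09). The receptor genes Ret and Ntrk3, which neurons use, fell (-2.198 and -1.81, edgeR adjusted p, Benjamini-Hochberg, at most 8.15e-07).

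Immediate early genes, which cells switch on within minutes of a stimulus, were higher at P14. Of 41 tested, 33 were higher, 3 lower and 5 not called, at a median of 2.30. Zfp36, which destabilises messenger RNA, was at 22.6, 24.04 and 21.9 CPM at P1 and 230.1, 243 and 229 CPM at P14 (3.36, SE 0.06, edgeR, Benjamini-Hochberg adjusted p = 2.83e-09). Egr2, a zinc finger gene, was at 0.524, 0.708 and 1.44 CPM at P1 and 11.1, 9.26 and 8.19 CPM at P14 (3.40, SE 0.31, edgeR, Benjamini-Hochberg adjusted p = 5.95e-06). For both genes, all P14 libraries lay well above all P1 libraries. Btg2 and Dusp1, which restrain growth and MAP kinases, rose by 2.59 and by 2.46 (edgeR adjusted p, Benjamini-Hochberg, at most 2.83e-09). Of the members that fell, Npas4 (-0.98) and Sik1 (-0.75) changed most, and Npas4 is induced by activity of neurons (edgeR adjusted p, Benjamini-Hochberg, at most 0.000782). Of 20 heat shock genes, 11 were higher, 8 lower and 1 not called, with Hspa1a (2.28), Hspa1b (2.04) and Bag3 (2.87) higher and Hsp90aa1 (-0.63) and Dnaja1 (-0.55) lower. Of 22 circadian clock genes, 16 were higher, 4 lower and 2 not called (median 1.42). Per1, a repressor of the clock, was at 64.1, 75.5 and 55.05 CPM at P1 and 182, 198 and 190.1 CPM at P14 (1.55, SE 0.11, edgeR, Benjamini-Hochberg adjusted p = 8.06e-07). Ciart, another repressor, was at 19.8, 17.6 and 8.55 CPM at P1 and 69.00, 70.1 and 74.03 CPM at P14 (2.22, SE 0.24, edgeR, Benjamini-Hochberg adjusted p = 2.02e-05). The hours at which retinas were taken are not given in the sources used here.

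Promoters of these genes were searched for motifs in the 250 bases before each RefSeq start (GRCm38.p6), on both strands. The CArG box, by which SRF binds, was found for 4 of 32 immediate early genes with a promoter (12.5%), against 1.62% of 27025 genes. The cAMP response element TGACGTCA was found for 3 of 32 (9.38%), against 1.77%. The E-box CACGTG was found for 5 of 18 clock genes (27.8%), against 6.86%. The list members counted had passed the low-count filter, while the 27025 genes were taken whether tested or not. These shares are therefore over unlike sets of genes. The stretches shown leave out annotated exons, so some are shorter than the bases searched. A match is a description of letters, not a site or a cause. Shown are some of the genes with a match whose changes are given in the text, with the motif in capitals: CArG box in Egr2 (chr10:67537316-67537565, plus strand) and in Srf itself (chr17:46556176-46556412, minus strand), which rose by 0.52 (SE 0.08, edgeR, Benjamini-Hochberg adjusted p = 0.000174), cAMP response element in Dusp1 (chr17:26508520-26508722, minus strand) and Btg2 (chr1:134079156-134079405, minus strand), and E-box in Per1 (chr11:69098699-69098947, plus strand) and Ciart (chr3:95882252-95882478, minus strand).

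Egr2: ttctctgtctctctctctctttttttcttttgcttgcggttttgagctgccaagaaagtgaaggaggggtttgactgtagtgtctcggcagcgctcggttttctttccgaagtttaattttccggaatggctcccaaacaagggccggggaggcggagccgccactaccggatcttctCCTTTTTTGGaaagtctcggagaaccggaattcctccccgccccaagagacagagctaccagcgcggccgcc
Srf: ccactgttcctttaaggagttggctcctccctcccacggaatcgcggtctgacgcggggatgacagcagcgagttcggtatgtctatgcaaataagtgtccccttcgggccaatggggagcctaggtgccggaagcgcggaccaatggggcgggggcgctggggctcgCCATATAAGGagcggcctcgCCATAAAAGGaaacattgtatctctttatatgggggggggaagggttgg
Dusp1: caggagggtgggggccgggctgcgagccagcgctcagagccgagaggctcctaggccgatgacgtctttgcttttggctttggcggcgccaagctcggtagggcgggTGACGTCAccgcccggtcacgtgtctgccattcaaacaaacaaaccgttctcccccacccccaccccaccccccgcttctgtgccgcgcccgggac
Btg2: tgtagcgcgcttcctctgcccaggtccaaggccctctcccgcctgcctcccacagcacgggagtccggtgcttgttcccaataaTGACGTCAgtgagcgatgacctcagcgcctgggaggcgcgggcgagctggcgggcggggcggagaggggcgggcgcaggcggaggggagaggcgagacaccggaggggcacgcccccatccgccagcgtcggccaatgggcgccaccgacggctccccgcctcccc
Per1: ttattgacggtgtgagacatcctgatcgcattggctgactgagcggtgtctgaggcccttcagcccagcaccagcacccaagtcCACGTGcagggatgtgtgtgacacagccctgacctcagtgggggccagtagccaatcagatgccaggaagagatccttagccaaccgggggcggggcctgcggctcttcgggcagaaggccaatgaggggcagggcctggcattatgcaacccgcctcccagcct
Ciart: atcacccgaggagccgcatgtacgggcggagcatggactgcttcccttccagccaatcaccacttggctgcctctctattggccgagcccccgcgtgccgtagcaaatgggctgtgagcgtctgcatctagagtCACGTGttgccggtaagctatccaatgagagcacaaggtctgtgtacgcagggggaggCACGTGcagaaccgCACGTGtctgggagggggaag

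Genes of antigen display were mostly higher. Of 22 tested, 14 were higher, 2 lower and 6 not called. B2m, the light chain of class I molecules, was at 17.4, 19.4 and 16.6 CPM at P1 and 68.5, 61.2 and 66.4 CPM at P14 (1.88, SE 0.08, edgeR, Benjamini-Hochberg adjusted p = 2.95e-08), and Tap2, which carries peptides to them, rose by 2.91 (SE 0.16, edgeR, Benjamini-Hochberg adjusted p = 1.46e-07). H2-Q7 fell by 2.36 (SE 0.21, edgeR, Benjamini-Hochberg adjusted p = 4.21e-06), but class I genes have near-identical copies and single values are uncertain. All P14 libraries lay above all P1 libraries for B2m.

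By genomic span, more DEGs fell than rose only among genes of 200 kb or more. Of 212 tested genes that span more than 500 kb, 38.7% were DEGs lower and 20.8% DEGs higher at P14, and their median log2 fold change was -0.55. Of 5063 genes of at most 5 kb, 14.1% were DEGs lower and 15.2% higher, with a median of -0.04. In every bin of span up to 200 kb more DEGs were higher than lower, for example 25.4% and 19.2% of 1403 genes that span 100 to 200 kb, and of 736 genes of 200 to 500 kb 22.6% were higher and 25.4% lower. Neurons express many long genes, and whether length, level or cell type goes with the change was not tested.

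**Figure D5:**
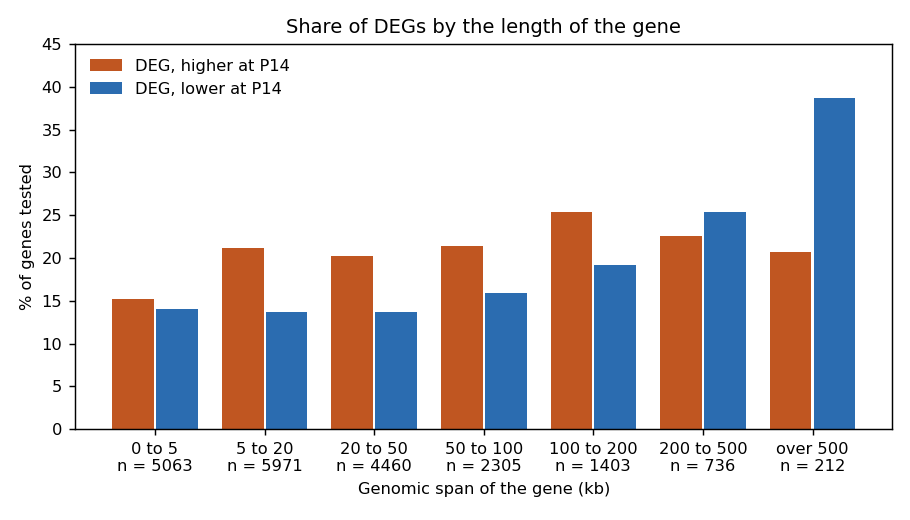
Share of tested genes that were DEGs, in percent, by genomic span of the gene in kb, with bars for higher and lower at P14 and the number of genes under each pair of bars. The share that was lower was 14.1% in the shortest genes and 38.7% in the longest.

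Among the most abundant genes, some did not pass the test. Ubb, a ubiquitin gene, was at 651, 616 and 678 CPM at P1 and 664, 626 and 665 CPM at P14, and its log2 fold change was 0.01. Vamp2, the synaptobrevin of vesicles, was at 531, 504 and 533 CPM at P1 and 549, 557 and 556 CPM at P14 (0.08). Ubb overlapped between the ages, while Vamp2 did not (edgeR, Benjamini-Hochberg adjusted p = 0.106). Scaled by library size alone, both passed the test.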

How the data were processed

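The authors deposited 1 table of raw read counts per gene for all 13 libraries, each from 2 µg of total RNA made into a library with the NEBNext Ultra kit. Per the submitters' processing notes, the tools were FastQC 0.11.9, Trimmomatic 0.39, HISAT2 2.2.1 and Subread 2.0.3, with the mouse build GRCm38. Whether counting used strand and how reads of several genes were treated are not given in the sources used here, so antisense and near-identical genes are uncertain.

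Counts were analysed with edgeR 4.0.16 (limma 3.58.1, R 4.3.3). Genes were filtered with filterByExpr and scaled by TMM, and a quasi-likelihood fit over the 8 development libraries, which share an estimate of the spread, gave P14 against P1. P-values were adjusted by the Benjamini-Hochberg method over 20890 genes. The SE given with a log2 fold change was derived from the test. It is the absolute log2 fold change divided by the square root of the quasi-likelihood F statistic. Figures and counts were made with Python 3.11.15, pandas 2.3.3 and matplotlib 3.10.9. The fit was tested on simulated counts for 20176 genes of this comparison. There 63% of 100 genes changed 2-fold and 79% of 100 changed 4-fold were called, and 10 unchanged genes were called. Apart from the changed genes none differed between the ages, and rises and falls were balanced. Far more genes moved in the real counts, so the simulation does not measure errors under such broad change.

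The comparison and its 72 gene lists (2190 entries) were chosen with earlier results of these data known. Of the entries, 49 lay on chromosomes X or Y, 11 had no match, 118 were below the filter and 2012 (1861 distinct genes) were tested. Genes were named by a rule: the 15 largest rises and falls among well expressed DEGs, the 12 largest gains and losses of CPM, the 4 most significant members of each list and 3 called against its direction, the gene pairs, the tubulins, and abundant genes that were not called. Chosen after their values were seen were Isl2, Irx4, Lin28b, Hmgcs1, Scn9a, Gad1, Klf2, Kdm6b, Mir124a-1hg, Thy1, Rbpms and the genes of the promoters shown. Promoters came from RefSeq. Some genes that the rule names are not reported here. Alternatives were DESeq2 1.42.0, limma-voom, other scalings, filters and libraries, and a replicate block. The replicate numbers did not pair the libraries.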

Additional observations from a re-analysis of the deposited data

How the results depend on the processing

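The main counts of 4012 DEGs higher and 3056 lower were within 1.5 times under DESeq2, limma-voom, DESeq2 size factors, no low-count filter, library size alone, the 6 libraries alone and each library left out. With no fold limit 6812 genes were higher and 6739 lower. With at least 10 counts in every library, which left 15410 genes, 2811 were higher and 2024 lower. Leaving out 1 library at a time gave 3760 to 3969 higher and 2865 to 2943 lower. Scaling by library size alone moved the median of all genes from -0.01 to 0.12 and gave 4373 higher and 2668 lower, and no named gene reversed. Of the comparisons of named genes with their alternatives, 9 lost a call, all for Kdm6b, and 10 gained 1, for Actl6a, Tubb4b, Ubb and Vamp2. With the replicate block 3866 were higher and 2910 lower. Libraries of the same number at both ages correlated at -0.01, 0.00 and -0.03 in their deviations from the group means, none over 0.1, so the numbers were not taken to pair the libraries, and not every library correlated best with its own number. The list counts under other settings were chosen after seeing the data. Depth limited low genes: those at under 1 CPM rest on few reads.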

Other observations

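Neuropeptide genes moved both ways, with 11 higher, 8 lower and 8 not called of 27. Pdyn, which encodes prodynorphin, was at 18.6, 21.9 and 14.7 CPM at P1 and 206, 184 and 194 CPM at P14 (3.41, SE 0.12, edgeR, Benjamini-Hochberg adjusted p = 1.65e-08), whereas Tac1, the substance P gene, was at 23.9, 25.1 and 28.9 CPM at P1 and 8.58, 7.59 and 8.02 CPM at P14 (-1.69, SE 0.11, edgeR, Benjamini-Hochberg adjusted p = 4.34e-07). The processing genes Cpe (-0.98) and Scg3 (-1.03) fell. Extracellular matrix genes were mostly higher, with 33 higher, 7 lower and 2 not called of 42, at a median of 2.87. Col4a1, a basement membrane collagen of vessels, was at 147, 161 and 261 CPM at P1 and 2323, 2187 and 1963 CPM at P14 (3.51, SE 0.22, edgeR, Benjamini-Hochberg adjusted p = 3.64e-07), and Col2a1, a fibril collagen of the vitreous and of Müller glia, rose by 3.06 (SE 0.08, edgeR, Benjamini-Hochberg adjusted p = 4.32e-09). The laminin gene Lama3 (-2.25) fell.

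Glutamate and amino acid genes were mostly higher, with 16 higher, 8 lower and 4 not called of 28. Slc1a7, a glutamate transporter of bipolar cells and photoreceptors, was at 19.2, 19.3 and 14.6 CPM at P1 and 138, 133 and 141 CPM at P14 (2.96, SE 0.11, edgeR, Benjamini-Hochberg adjusted p = 1.79e-08), while Slc1a1, a glutamate transporter of neurons, fell by 1.73, and Asns, asparagine synthetase, fell by 1.51 (edgeR adjusted p, Benjamini-Hochberg, at most 5.18e-07).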
